A study of Mus musculus with 6 samples.

Results

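The enzymes that build cholesterol and fatty acids, with the proteins that switch their genes on and off, were examined in mouse blastocysts cultured with a mimic of the microRNA miR-30d or with a scrambled control. The set was a list of 30 genes, of which 29 had a named feature on the array and all 29 passed the filter on dim features, out of 17399 genes tested. They comprise 15 enzymes of sterol synthesis, 9 enzymes that make, elongate or desaturate fatty acids, and 5 genes grouped here as regulators, 4 of the regulatory circuit and the sterol carrier gene Stard4. Acat2, the sixteenth sterol enzyme listed, was not analysed here. For each gene the feature with the highest mean over the 6 arrays was used, and members were matched by symbol after updating old names through Entrez identifiers.

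Embryos of the B6C3F1 hybrid strain came from superovulated females aged 6 to 8 weeks, were flushed on day 2 of pregnancy and were cultured for 72 hours with 400 nM of RNA. In 3 samples the RNA was the mimic, and in the other 3 it was the scrambled oligonucleotide labelled with Alexa 488. Whole blastocysts of day 5 were used, with 30 embryos per condition, and 50 ng of their RNA went to Cy3 labelling for a 1-colour array. All 6 samples received an oligonucleotide and the dye is named for the scramble samples, so the sequence of the mimic and the dye on the scramble cannot be told apart here. The samples are labelled biological replicates without saying whether their cultures came from separate matings, and p-values reflect the spread among these 6 samples.

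Cells make cholesterol from acetyl-CoA through the mevalonate pathway, which leads by way of farnesyl diphosphate and squalene to lanosterol and then, in a series of demethylation, isomerisation and reduction steps, to cholesterol. Fatty acid synthesis starts from the same acetyl-CoA, which acetyl-CoA carboxylase turns into malonyl-CoA and fatty acid synthase builds into palmitate. The transcription factors SREBP2 and SREBP1, encoded by Srebf2 and Srebf1, drive mainly the sterol and mainly the fatty acid branch. Scap escorts them to the Golgi for cleavage when sterols are scarce, and Insig1 holds Scap back when sterols are plentiful. An embryo that cavitates and divides needs both products for its membranes.

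Promoters of 4 members are shown because SREBPs bind DNA beside the ubiquitous factors NF-Y, which reads the CCAAT box, and Sp1, which reads the GC box, and because the deposited values of the genes can then be read next to the letters these factors are known to bind. Sequences are from RefSeq on GRCm38.p6, run 5′ to 3′ in the direction of the gene, and hold 250 bases before and 50 after its start. Capitals mark the letters TCACNCCAC (a form of the sterol response element), the CCAAT box by its own letters, the GC box as GGGCGG, and the E-box as CACGTG, each on either strand. The windows are chr13:119690101-119690400 on the + strand, chr13:8885356-8885655 on the + strand, chr5:114444019-114444318 on the + strand and chr11:120824498-120824797 on the - strand.
Hmgcs1: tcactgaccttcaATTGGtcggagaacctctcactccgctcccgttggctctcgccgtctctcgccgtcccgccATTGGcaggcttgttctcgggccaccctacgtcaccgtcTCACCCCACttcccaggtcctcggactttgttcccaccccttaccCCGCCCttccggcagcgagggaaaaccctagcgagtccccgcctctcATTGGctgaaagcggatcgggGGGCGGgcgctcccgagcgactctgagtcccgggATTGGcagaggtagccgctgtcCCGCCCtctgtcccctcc
Idi1: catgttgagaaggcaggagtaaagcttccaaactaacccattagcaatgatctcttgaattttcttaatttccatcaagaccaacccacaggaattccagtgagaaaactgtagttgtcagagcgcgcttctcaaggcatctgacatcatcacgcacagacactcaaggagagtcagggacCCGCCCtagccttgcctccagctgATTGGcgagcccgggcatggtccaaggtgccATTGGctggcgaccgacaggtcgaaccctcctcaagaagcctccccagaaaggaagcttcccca
Mvk: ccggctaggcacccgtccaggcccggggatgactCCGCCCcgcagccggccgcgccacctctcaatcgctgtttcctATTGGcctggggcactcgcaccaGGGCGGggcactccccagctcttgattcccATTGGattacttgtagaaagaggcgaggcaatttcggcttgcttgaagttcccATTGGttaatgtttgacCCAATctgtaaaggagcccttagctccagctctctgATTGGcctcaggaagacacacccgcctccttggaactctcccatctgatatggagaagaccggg
Fasn: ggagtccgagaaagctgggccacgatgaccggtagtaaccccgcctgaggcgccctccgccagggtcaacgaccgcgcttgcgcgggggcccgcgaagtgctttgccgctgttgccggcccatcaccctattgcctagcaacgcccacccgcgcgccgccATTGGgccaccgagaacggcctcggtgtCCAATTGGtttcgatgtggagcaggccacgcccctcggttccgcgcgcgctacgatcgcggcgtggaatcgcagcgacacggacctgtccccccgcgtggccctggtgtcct

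The table of promoters held 23 of the 30 genes, and Fdft1, Fads1, Stard4, Scd1, Sqle, Fdps and Scd2 were not among them. CCAAT letters occurred in a window of 12 of the 13 sterol enzymes, 3 of the 6 fatty acid enzymes and 3 of the 4 regulators, and in 41.1% of all 27025 genes in the table. GC box letters occurred in 12 of 13, 3 of 6 and 4 of 4, and in 38.2% of all genes. The sterol response letters were found in Hmgcs1 alone among the 23, starting 137 bases before the gene's start, and in 1.44% of all genes. E-box letters were found in Dhcr7, Hsd17b7, Insig1 and Scap, and in 8.09% of all genes. In the 4 printed windows the only letters that belong to more than 1 motif are in Fasn, where a CCAAT box runs into another on the opposite strand. Mvk has 5 CCAAT boxes, all before the gene's start, and Hmgcs1 has 4, on both sides of its start. These matches describe letters in a window of fixed length and are not evidence of binding in these embryos.

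In the comparison of mimic with scramble, most genes of both branches had slightly higher mean signal with the mimic, the stearoyl-CoA desaturase genes Scd1 and Scd2 had the largest differences, and none of the 29 passed the test. The mean was higher in 11 of 15 sterol enzymes, 8 of 9 fatty acid enzymes and 4 of 5 regulators, or 23 of 29 in all (79.3%), against 53.2% of all genes tested. The median log2 difference was 0.22 in the sterol enzymes, 0.19 in the fatty acid enzymes and 0.15 in the regulators, against 0.02 over all genes. limma called 0 of the 29 at an adjusted p of 0.05, as it called 0 of 17399 genes (0%), and the members' adjusted p-values were 0.972 to 0.996. At an unadjusted p under 0.05 there were 2 members, Scd1 and Scd2, and 552 genes (3.17%) in all.

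The 6 arrays differed in how closely they resembled one another and in their number of distinct values. Array medians were 7.37 to 7.38 log2 units, but scramble replicate 1 correlated with the other arrays at a mean r of 0.913 over genes and mimic replicate 1 at 0.938, against 0.958 to 0.963 for the other 4. These 2 arrays also had the fewest distinct values, 2108 and 2683, against 4410 to 5979. Of the markers of the 3 blastocyst lineages, all 24 lay above the filter on dim features. Of 45 markers found for oocytes, cumulus cells, oviduct, blood, sperm, stroma and endothelium, 21 did, and Kdr alone exceeded a level of 9. Primitive endoderm markers had a median difference of 0.23 with 6 of 8 higher, inner cell mass markers 0.10 with 6 of 8 higher, and trophectoderm markers -0.11 with 2 of 8 higher. Their summed log2 levels overlapped between the groups, at 84.4 to 86.6 with scramble and 85.9 to 87.5 with the mimic for primitive endoderm, 76.8 to 78.7 and 77.5 to 78.4 for the inner cell mass, and 102.3 to 104.0 and 101.1 to 103.6 for trophectoderm. The part of lineage composition in the results below was not tested, and in whole embryos fewer cells of a type and less RNA per cell cannot be told apart.

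**Figure D1:**
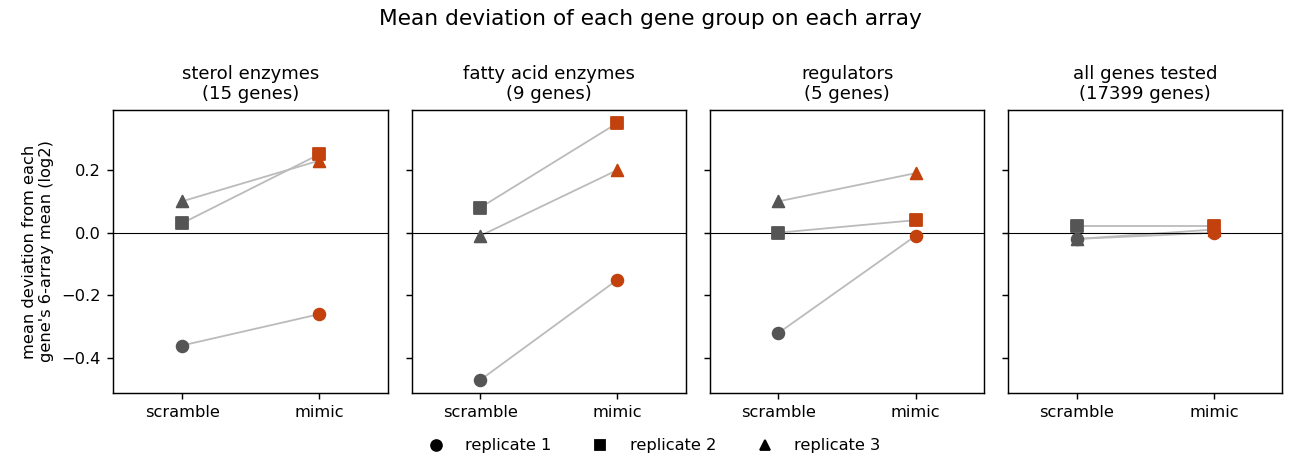
Mean deviation of each gene group on each array, in log2 units from each gene's own mean over 6 arrays (vertical axis), for scramble and mimic arrays (horizontal axis). Marker shapes give the replicate number and grey lines join same-numbered arrays. Both replicate 1 arrays lie lowest in the sterol panel, at -0.36 and -0.26, and all genes tested stay within 0.02 of 0.

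On average the members were low on both replicate 1 arrays, though not every member was. On scramble replicate 1 the mean deviation of the 29 genes from their own means was -0.39 log2 units, and 21 of them had their lowest value there, which 32% of all genes did. On mimic replicate 1 the average was -0.18 and 7 further genes had their lowest value (22.1% of all genes). Even so, 10 of the 29 lay above their own means there, against 45.6% of all genes. The regulators averaged -0.01 on that array, and Mvk and Srebf1 had their highest value on it. On mimic replicates 2 and 3 the averages were 0.24 and 0.22, and 26 and 27 of the 29 lay above their own means, against 56% and 54.7% of all genes. Scramble replicates 2 and 3 lay between, at 0.04 and 0.07. In the fatty acid enzymes of the scramble group, replicate 1 was at -0.47 and the others at 0.08 and -0.01.

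Deviations from the group mean correlated between same-numbered arrays at 0.328, 0.349 and 0.204 in replicates 1, 2 and 3. Scramble replicate 2 and mimic replicate 3 reached 0.185, so the pairing is least certain for replicate 3. The difference within each number is given as well. The sterol enzymes were higher with the mimic in 11, 14 and 12 of 15 genes in replicates 1, 2 and 3, with median differences of 0.30, 0.28 and 0.12. Of all genes tested, 52.5%, 50.0% and 57.0% were higher in replicates 1, 2 and 3, with medians of 0.03, 0.00 and 0.05. The fatty acid enzymes were higher in 6, 7 and 7 of 9 genes, with medians of 0.18, 0.11 and 0.20. In all 3 numbers at once the mimic array was higher for 9 sterol enzymes, 5 fatty acid enzymes and 2 regulators, or 16 of 29 (55.2%), against 19.1% of all genes. Elovl6 was the 1 member lower in all 3, against 13.8% of all genes. With the replicate number as a block in limma, 9 members had an unadjusted p under 0.05, all of them higher with the mimic, against 1260 genes (7.24%) in either direction and 688 (3.95%) higher. The block called 0 members and 1 gene in all (0.00575%), and the members' smallest adjusted p was 0.351. The members' median standard error fell from 0.23 to 0.14 with the block, and that of all genes from 0.25 to 0.20.

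**Figure D2:**
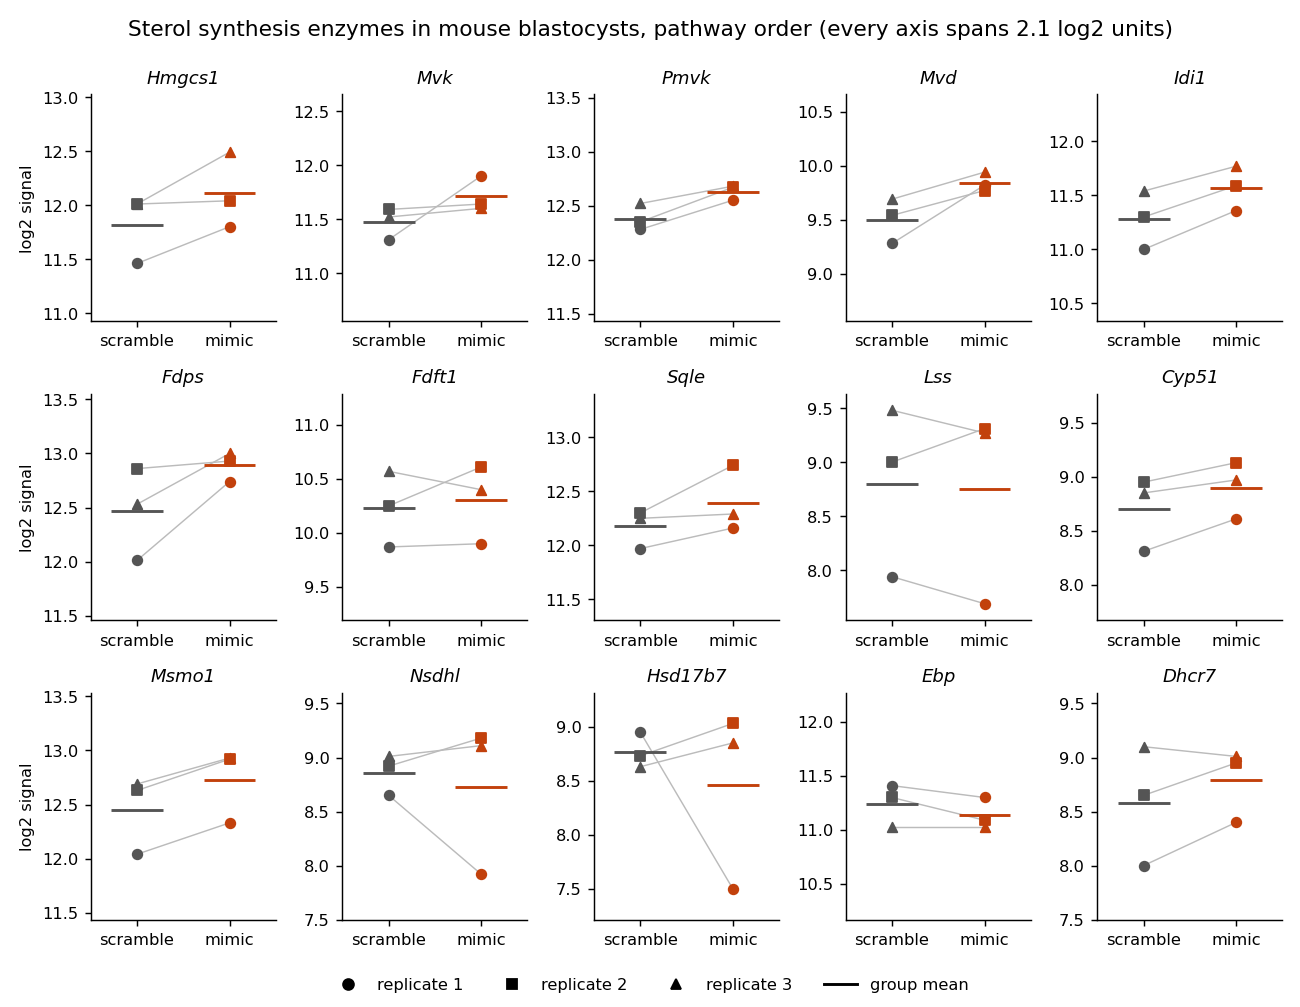
Log2 signal (vertical axes) of the 15 sterol synthesis enzymes in pathway order, in 3 scramble and 3 mimic arrays (horizontal axes). Points are arrays, shapes give the replicate number, grey lines join same-numbered arrays and bars are group means. In Mvk, Pmvk and Mvd the mimic points all lie above the scramble points, and in Lss both replicate 1 arrays lie far below the others.

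The mevalonate steps, which run from acetyl-CoA units to the isoprenoid farnesyl diphosphate, had higher means with the mimic in all 6 genes tested, Hmgcs1, Mvk, Pmvk, Mvd, Idi1 and Fdps, and each was higher in all 3 same-numbered comparisons. Mvd encodes the decarboxylase that makes isopentenyl diphosphate. Its log2 signal was 9.28, 9.54 and 9.69 in scramble replicates 1 to 3 and 9.82, 9.77 and 9.94 in mimic replicates 1 to 3. Every mimic value lay above every scramble value, and the log2 difference was 0.34 (SE 0.17, adjusted p = 0.972 in limma). Pmvk, the phosphomevalonate kinase gene, had 12.28, 12.35 and 12.52 with scramble and 12.55, 12.67 and 12.68 with the mimic, again without overlap. Its difference of 0.25 (SE 0.13) was close to the 0.21 (SE 0.16) of its other feature. Mvk, whose product adds the first phosphate to mevalonate, had 11.31, 11.59 and 11.52 against 11.90, 11.64 and 11.60. The groups were separate, but scramble replicate 2 and mimic replicate 3 nearly touched, and the other feature of Mvk had a difference of 0.05 (SE 0.19) against 0.24 (SE 0.14) for the feature used, which gave 0.15 without mimic replicate 1 and 0.16 without scramble replicate 1.

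Fdps makes farnesyl diphosphate, the branch point to sterols and prenylated proteins. It read 12.01, 12.86 and 12.53 with scramble and 12.74, 12.93 and 13.00 with the mimic. The groups overlapped, since scramble replicate 2 lay above mimic replicate 1, and the log2 difference was 0.42 (SE 0.21), or 1.34-fold. It was 0.19 without scramble replicate 1, the lowest array. Hmgcs1, the cytosolic HMG-CoA synthase whose promoter holds the sterol response letters, read 11.46, 12.01 and 12.01 against 11.80, 12.04 and 12.49. The difference of 0.28 (SE 0.22) came from replicates 1 and 3, since the replicate 2 arrays differed by 0.03. Leaving out scramble replicate 1 gave 0.10, and leaving out mimic replicate 3 gave 0.09. Idi1, the isopentenyl diphosphate isomerase gene, read 11.00, 11.30 and 11.54 against 11.36, 11.59 and 11.77. Its 3 same-numbered differences were alike, at 0.36, 0.29 and 0.23, although the groups overlapped, and its difference was 0.29 (SE 0.17 without the block and 0.09 with it), and 0.15 without scramble replicate 1.

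In a two-sided exact permutation test over the 6 arrays, Mvd, Pmvk and Mvk each had p = 0.1, the smallest that 3 against 3 arrays allow. In the same permutation test Fdps and Idi1 had p = 0.2, and Hmgcs1 had p = 0.4. Values did not overlap between groups in 6 of the 29 members, all of them higher with the mimic, against 971 of all genes (5.58%) in that direction and 716 (4.12%) lower.

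The squalene and lanosterol steps were uneven. Sqle, the squalene epoxidase gene, read 11.97, 12.30 and 12.25 with scramble and 12.16, 12.74 and 12.29 with the mimic, a difference of 0.22 (SE 0.18) that was 0.05 without mimic replicate 2. Fdft1, which encodes squalene synthase, had a difference of 0.07 (SE 0.24) and Cyp51, the lanosterol demethylase gene, 0.20 (SE 0.27). The other feature of Fdft1, below the filter on dim features, had -0.32, opposite in sign. Without scramble replicate 1 Fdft1 had -0.11 and the Cyp51 difference was under 0.01. Lss, the lanosterol synthase gene, had the largest standard error of all members. It read 7.94, 9.00 and 9.48 with scramble and 7.69, 9.31 and 9.27 with the mimic, so the replicate 1 arrays of both groups lay over 1 log2 unit below the rest. Its difference of -0.05 (SE 0.52) turned to 0.48 without mimic replicate 1 and to -0.48 without scramble replicate 1.

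Among the later enzymes that trim lanosterol to cholesterol, Msmo1, the sterol C4-methyl oxidase gene, had the most even difference. It read 12.04, 12.63 and 12.69 against 12.33, 12.92 and 12.93, with same-numbered differences of 0.30, 0.28 and 0.24. The groups overlapped because mimic replicate 1 lay below scramble replicates 2 and 3, and the standard error of its difference of 0.27 fell from 0.23 to 0.08 with the replicate block (adjusted p = 0.587 in limma with the block). Unpaired, the difference was 0.06 without scramble replicate 1, 0.17 without mimic replicate 3 and 0.47 without mimic replicate 1. Nsdhl and Hsd17b7 encode its partners in removing the C4 methyl groups. Nsdhl read 8.65, 8.92 and 9.01 against 7.92, 9.18 and 9.11. Hsd17b7 read 8.95, 8.73 and 8.63 against 7.50, 9.03 and 8.85. In both genes mimic replicate 1 was the lowest array and the other 2 mimic arrays lay above the scramble array of their number. Their differences of -0.12 (SE 0.36) and -0.31 (SE 0.41) turned to 0.28 and 0.17 without mimic replicate 1, and the other feature of Nsdhl had 0.06 (SE 0.30), opposite in sign. Ebp, the sterol isomerase gene, had -0.10 (SE 0.14), with -0.21 when scramble replicate 3 was left out and -0.02 when scramble replicate 1 was, and Dhcr7, whose product carries out a last reduction to cholesterol, had 0.20 (SE 0.34), which was -0.09 without scramble replicate 1.

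**Figure D3:**
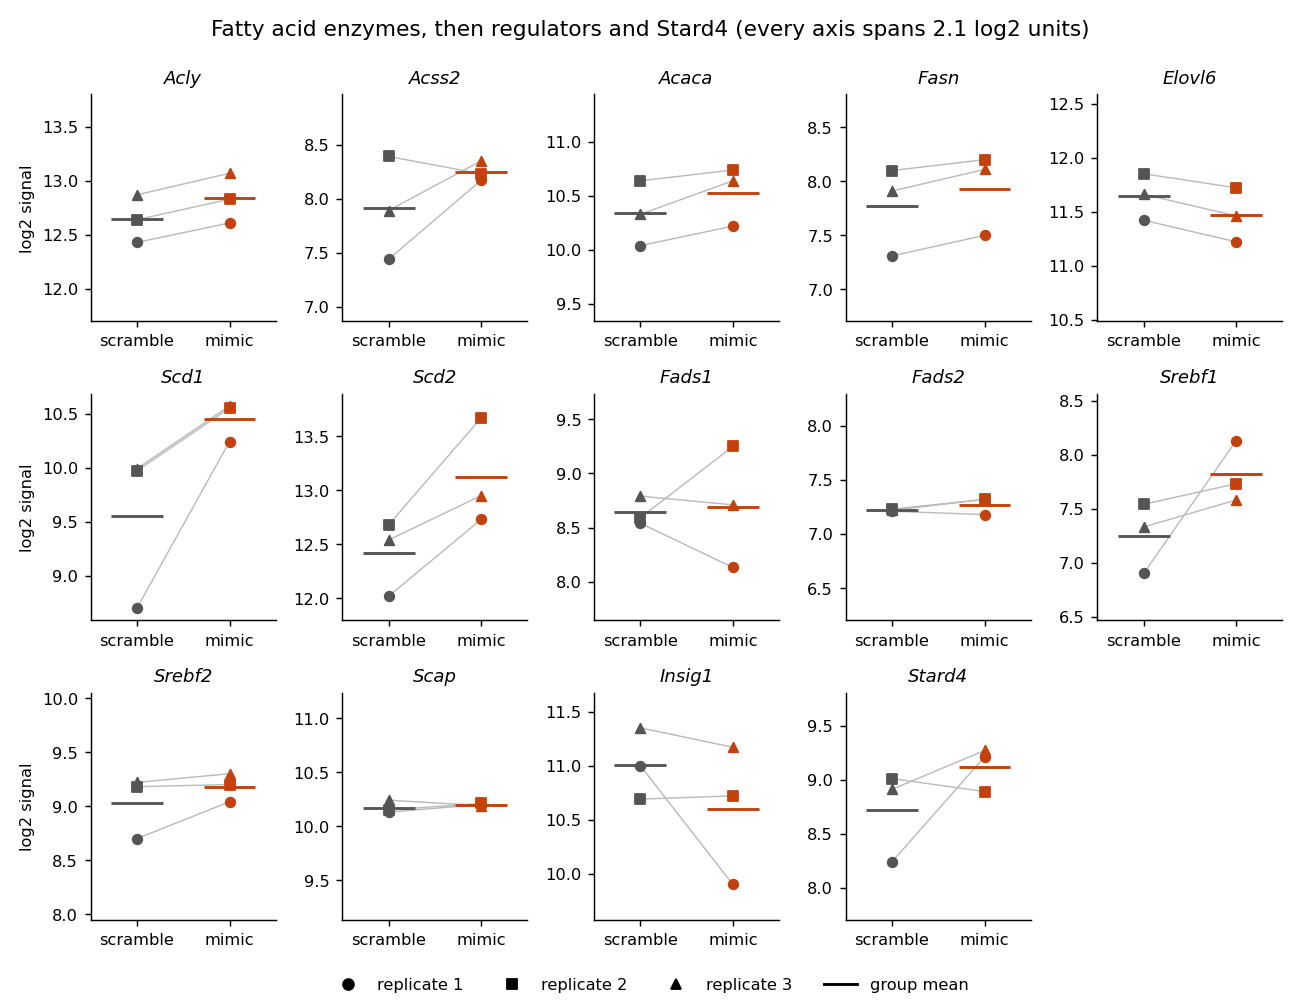
Log2 signal (vertical axes) of the 9 fatty acid enzymes followed by Srebf1, Srebf2, Scap, Insig1 and Stard4, in 3 scramble and 3 mimic arrays (horizontal axes). Points are arrays, shapes give the replicate number, grey lines join same-numbered arrays and bars are group means. Scd1, Scd2 and Srebf1 are the genes whose mimic points all lie above the scramble points.

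In the fatty acid branch the desaturases of the stearoyl-CoA family, which place the first double bond in a saturated chain, had the largest differences of the 29 genes. Scd1 read 8.70, 9.97 and 9.99 in scramble replicates 1 to 3 and 10.24, 10.55 and 10.57 in mimic replicates 1 to 3. Every mimic array lay above every scramble array, and scramble replicate 1 lay more than 1 log2 unit below all others. The log2 difference was 0.90 (SE 0.33, 1.86-fold, 95% interval 0.14 to 1.65, unadjusted p = 0.0253, adjusted p = 0.972 in limma). Leaving out scramble replicate 1 gave 0.47, and leaving out the replicate 1 arrays of both groups gave 0.57. Scd2, the form widely expressed in embryonic tissue, read 12.02, 12.68 and 12.54 with scramble and 12.73, 13.67 and 12.95 with the mimic. The groups did not overlap, with scramble replicate 2 just below mimic replicate 1, and mimic replicate 2 was the brightest array. The difference was 0.70 (SE 0.26, 1.62-fold, 95% interval 0.10 to 1.30, unadjusted p = 0.0275, adjusted p = 0.972 in limma). Leaving out mimic replicate 2 gave 0.42, leaving out scramble replicate 1 gave 0.51, and it stayed at 0.70 with the replicate 1 arrays of both groups left out.

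In limma with the replicate block, Scd2 and Scd1 had the smallest p-values of the members (adjusted p = 0.351 and 0.496) and did not pass. In an exact permutation test each had p = 0.1, two-sided. Scd1 and Scd2 are related neighbouring genes, and each was read by 1 feature.

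The enzymes that supply and build the saturated chain had smaller differences. Acly, the ATP citrate lyase that makes cytosolic acetyl-CoA for both branches, read 12.43, 12.64 and 12.87 against 12.61, 12.83 and 13.07. Its same-numbered differences were 0.18, 0.19 and 0.20, the most even of the fatty acid enzymes, and its difference was 0.19 (SE 0.17 without the block and 0.08 with it), and leaving out scramble replicate 1 gave 0.08, and leaving out mimic replicate 3 gave 0.07. Acss2, which makes acetyl-CoA from acetate, had 0.34 (SE 0.32), and 0.11 without scramble replicate 1. Acaca, the acetyl-CoA carboxylase gene, had 0.20 (SE 0.20), its 4 features ranged from 0.02 to 0.31, and it had 0.05 without scramble replicate 1. Fasn, the fatty acid synthase gene, had 0.16 (SE 0.34), and -0.07 without scramble replicate 1. Fasn read 7.31 to 8.20 over all arrays, near the 7.16 below which features were left out, where differences can be understated.

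Elovl6, which lengthens palmitate to stearate and thereby supplies the substrate of the stearoyl-CoA desaturases, lay on the other side. It read 11.42, 11.85 and 11.66 with scramble and 11.22, 11.72 and 11.46 with the mimic. The groups overlapped, but each mimic array lay below the scramble array of its number, with same-numbered differences of -0.20, -0.13 and -0.20, and the difference was -0.18 (SE 0.17). Leaving out mimic replicate 1 gave -0.05, leaving out scramble replicate 2 gave -0.07, and the range went down to -0.30 without mimic replicate 2. The desaturases of polyunsaturated chains had differences near 0. Fads1 had 0.06 (SE 0.32), with mimic replicate 1 the lowest and mimic replicate 2 the highest of its arrays, and Fads2 lay at the dim end, at 7.18 to 7.32, with 0.05 (SE 0.17) and with -0.27 on its other feature, below the filter on dim features.

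Among the regulators Srebf1 had the largest difference and Insig1 a negative one. Srebf1 read 6.90, 7.54 and 7.33 with scramble and 8.13, 7.73 and 7.58 with the mimic. The groups did not overlap, but the replicate 1 arrays differed by 1.23 and the others by 0.19 and 0.26. The log2 difference was 0.56 (SE 0.28, adjusted p = 0.972 in limma), and 0.22 without both replicate 1 arrays. Its feature is dim, and which SREBP1 isoform it reads was not examined. Srebf2 had 0.15 (SE 0.22), which was -0.02 without scramble replicate 1, and Scap was nearly flat, at 10.13 to 10.24 with scramble and 10.19 to 10.21 with the mimic, a difference of 0.03 (95% interval -0.26 to 0.32).

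Insig1, whose transcript is itself induced by SREBPs and whose protein restrains them, read 11.00, 10.69 and 11.35 with scramble and 9.90, 10.72 and 11.17 with the mimic. The groups overlapped, and mimic replicate 1 was the lowest array. The difference was -0.42 (SE 0.31), and it was -0.07 without mimic replicate 1 and also -0.07 without both replicate 1 arrays. Stard4, a cytosolic sterol carrier, read 8.24, 9.01 and 8.91 against 9.21, 8.89 and 9.27. Its difference was 0.40 (SE 0.27), leaving out scramble replicate 1 gave 0.16, leaving out the replicate 1 arrays of both groups gave 0.12, and its other feature had 0.10 (SE 0.31).

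**Figure D4:**
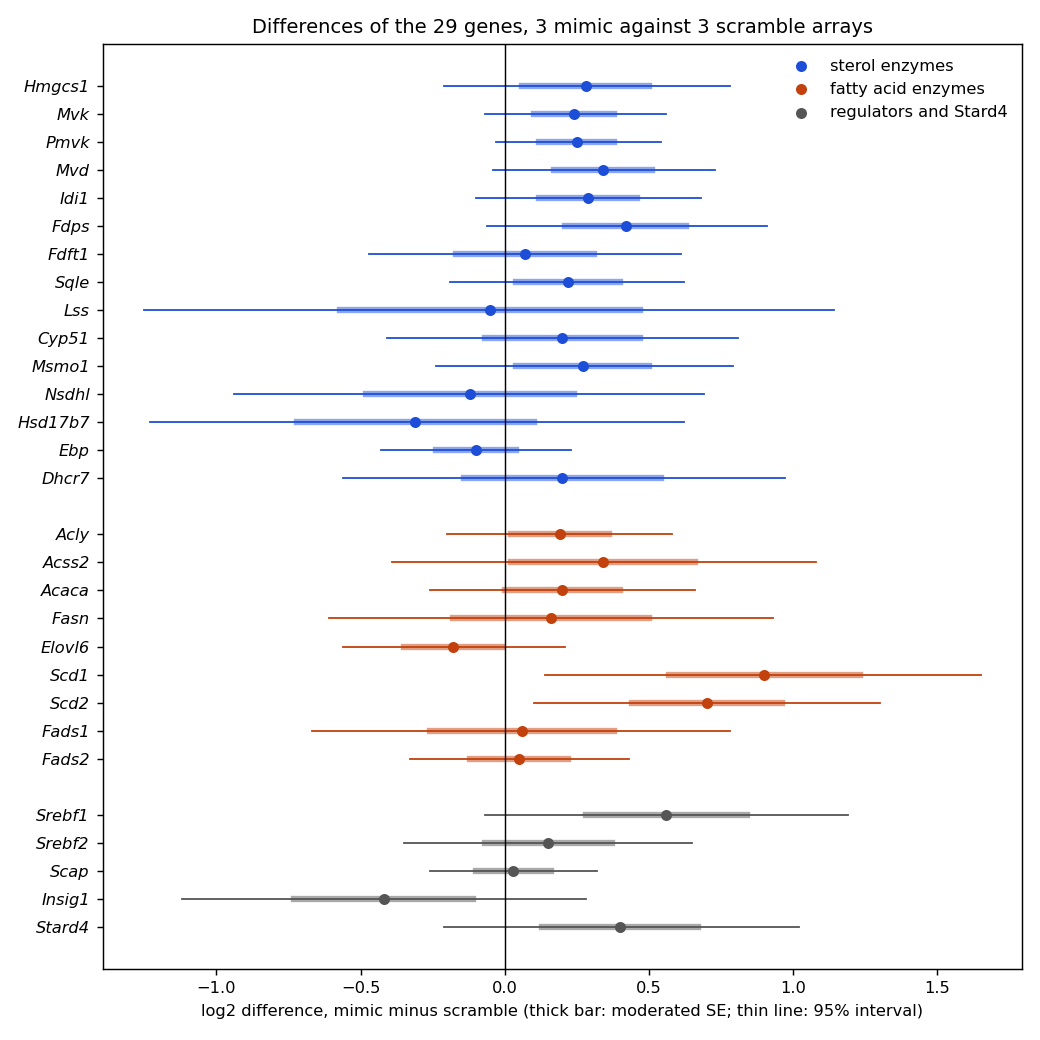
Log2 difference, mimic minus scramble (horizontal axis), of the 29 genes by group (vertical axis). Points are limma estimates, thick bars the moderated standard error and thin lines the 95% interval, not adjusted for the number of genes. The intervals of Scd1 (0.14 to 1.65) and Scd2 (0.10 to 1.30) lie above 0 and the other 27 include it.

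The sterol and the fatty acid branch had like medians, 0.22 and 0.19, which differ by 0.03. This difference ranged from -0.04 without scramble replicate 2 to 0.09 without mimic replicate 3. The fatty acid enzymes had the wider range through Scd1 and Scd2 alone. The next highest, Acss2 at 0.34, and the lowest, Elovl6 at -0.18, lay inside the range of the sterol enzymes. The sterol enzymes ranged from -0.31 to 0.42 with no gene at an unadjusted p under 0.05, and the fatty acid enzymes from -0.18 to 0.90 with the 2 stearoyl-CoA desaturases under it. With the replicate block, 6 sterol enzymes (Hmgcs1, Pmvk, Mvd, Idi1, Fdps and Msmo1) and 3 fatty acid enzymes (Acly, Scd1 and Scd2) had an unadjusted p under 0.05. No test was made of a score over a branch, because the genes of the list were chosen with results of these data known.

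The medians of both branches rested in part on the 2 arrays that stand apart, in opposite ways. Without scramble replicate 1 the median was 0.06 in the sterol enzymes, 0.05 in the fatty acid enzymes and 0.01 in the regulators, and 19 of 29 members were higher. Without mimic replicate 1 the medians were 0.34, 0.36 and 0.22, with 26 of 29 higher. Without both they were 0.24, 0.19 and 0.05, again with 26 of 29 higher, and 14 of 15 sterol enzymes were. Without mimic replicate 2 the medians were 0.12, 0.09 and 0.14, and without mimic replicate 3 the fatty acid median was 0.08 and the regulator median 0.09. The fatty acid median was 0.32 without scramble replicate 2, and the regulator median was 0.23 without scramble replicate 2 and 0.24 without scramble replicate 3. None of these settings brought a member past the adjusted threshold in limma.

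The other genes of the pathway, taken from lists by function, had 0 calls in limma. In each list the 3 genes with the smallest p in limma are named. Low unadjusted p-values and separate groups among them follow in part from that choice. Of 8 further sterol enzymes 6 were higher, with a median of 0.27, which was 0.10 without scramble replicate 1, 0.12 without mimic replicate 1, 0.18 without scramble replicate 3 and 0.15 with the replicate 1 arrays of both groups left out. Sc5d, the lathosterol oxidase gene, read 7.33, 8.86 and 9.02 with scramble and 9.00, 9.30 and 9.36 with the mimic, a difference of 0.82 (SE 0.43). Scramble replicate 1 lay apart from the other arrays, and leaving it out gave 0.28. Lbr and Tm7sf2, which encode the sterol C14 reductases, had 0.75 (SE 0.63) and 0.49 (SE 0.32), both with their lowest value on scramble replicate 1, and without that array Lbr had -0.10 and Tm7sf2 0.15.

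Of 12 further regulators 8 were higher, with a median of 0.06, from -0.01 without scramble replicate 3 to 0.17 without mimic replicate 1. They include genes of the factors whose letters are marked in the promoters, Sp1 with a difference of 0.43 (SE 0.20), the NF-Y subunit genes Nfya with 0.54 (SE 0.32) and Nfyc with -0.26 (SE 0.12), and none passed. Leaving out scramble replicate 1 gave 0.23 for Sp1 and 0.27 for Nfya, and the mean over the features of Nfyc gave -0.11. Of 12 genes of sterol uptake, transport and storage 7 were higher, with a median of 0.12, which was 0.06 without scramble replicate 1 and also without mimic replicate 2. The cholesterol ester hydrolase gene Nceh1 had 0.71 (SE 0.32), the cholesterol exporter gene Abca1 0.55 (SE 0.29) and the lipoprotein receptor gene Scarb1 0.50 (SE 0.33). Abca1 was dim, at 7.23, 7.84 and 7.70 with scramble and 8.00, 8.09 and 8.33 with the mimic. Its difference was 0.37 without scramble replicate 1. Scarb1 had 0.14 as the mean over its features, 0.16 without scramble replicate 1 and 0.03 with the replicate 1 arrays of both groups left out, where Nceh1 had 0.46.

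Of 20 further fatty acid synthesis genes 13 were higher, with a median of 0.05, with 0.01 when scramble replicate 1 was left out and 0.12 when scramble replicate 3 was, and the mitochondrial citrate carrier gene Slc25a1 had 0.30 (SE 0.15). The cytochrome b5 genes Cyb5b and Cyb5a had 0.29 (SE 0.20) and 0.26 (SE 0.19), and 0.12 and 0.11 without scramble replicate 1. Of 18 genes of fatty acid activation and lipid storage 12 were higher, with a median of 0.05, with -0.02 when scramble replicate 1 was left out and 0.20 when scramble replicate 3 was. Acsl4, which activates polyunsaturated fatty acids, read 8.06, 8.90 and 8.80 with scramble and 9.32, 9.49 and 9.39 with the mimic, without overlap (difference 0.81, SE 0.26, unadjusted p = 0.014, adjusted p = 0.972 in limma). The Acsl4 difference was 0.55 without scramble replicate 1. The lipase coactivator gene Abhd5 had 0.44 (SE 0.19) and the triglyceride synthesis gene Dgat2 0.43 (SE 0.23), which was 0.24 without scramble replicate 1.

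Fatty acid oxidation, the opposing pathway in mitochondria and peroxisomes, had counts close to even. Its 18 genes had a median of -0.07, with 8 on the higher and 10 on the lower side, and the median was -0.02 without mimic replicate 2. Acaa2, the mitochondrial thiolase gene, read 12.43, 12.64 and 12.75 with scramble and 12.35, 12.25 and 12.30 with the mimic, without overlap (difference -0.31, SE 0.13, unadjusted p = 0.0459, adjusted p = 0.972 in limma). Acadl had -0.27 (SE 0.18) and the carnitine palmitoyltransferase gene Cpt1b -0.52 (SE 0.34). Cpt1b had -0.17 as the mean over its features, -0.33 with scramble replicate 3 left out and -0.89 with scramble replicate 2 left out. Acadl had -0.15 without scramble replicate 3. The difference between the synthesis and the oxidation lists was not tested.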

How the data were processed

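The members and lists were chosen with earlier results of these data known. The authors deposited 1 table of log2 signal for 45220 features on 6 arrays, and how they were scanned, background-corrected and normalized is a step not given in the sources used. Array medians nearly coincide, so a change shared by most genes cannot be seen. The 33026 features with 1 gene symbol in the platform annotation (0 had several, 12194 none) were renamed by Entrez identifier through a RefSeq table of GRCm38.p6 (98.2% matched). The dimmest 25% by mean over all arrays (under 7.16) were left out, and the brightest feature of each gene was kept, giving 17399 genes. Detection flags were not used here, so a dim feature has no known limit.

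Mimic was compared with scramble by limma 3.58.1 in R 4.3.3 (trend, two-sided, Benjamini-Hochberg over all genes, threshold 0.05). Errors are moderated standard errors, and the number of arrays limits the precision. Named genes are all members and the 3 with the smallest p in each of the 6 other pathway lists. The correlation of deviations from the group mean between arrays of 1 number was 0.328, 0.349 and 0.204, over the 0.1 used as the rule for pairing, but differently numbered arrays reached 0.185. This pairing comes from the data, not the labels, so the replicate block is an alternative. The others were the filter, probe choice, scaling, trend, array weights and arrays left out. Figures used matplotlib 3.10.9.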

Additional observations from a re-analysis of the deposited data

How the results depend on the processing

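Each result was recomputed under 15 alternatives, and no member was called in any of them. Among 434 values of members, 417 kept their direction and 17 turned, in 8 genes. Throughout, 18 members stayed higher and 3 (Ebp, Elovl6 and Insig1) stayed lower. Leaving out the trend, adding the replicate block and changing the filter cannot alter a member's estimated difference. The agreement of those settings was therefore fixed in advance and is no measure of stability. The 417 values include them. With the replicate block 1 gene was called in place of 0, and the block changed no call of a member. With array weights Lss had 0.04, Nsdhl 0.13 and Hsd17b7 0.15, and leaving out the replicate 1 arrays of both groups gave 0.05, 0.18 and 0.26. With each array left out in turn, Lss ranged from -0.48 to 0.48, Nsdhl from -0.34 to 0.28, Hsd17b7 from -0.59 to 0.17, Fdft1 from -0.11 to 0.27, Dhcr7 from -0.09 to 0.46, Fasn from -0.07 to 0.38, Srebf2 from -0.02 to 0.24, Fads1 from -0.22 to 0.34 and Lbr from -0.10 to 1.20. Quantile normalization and median centring left each branch's count of higher members as reported. The array medians nearly coincided beforehand, and these settings hardly changed any member's difference, so this too says little about stability. Fads2 fell out under the stricter filter, which left 7 of 8 fatty acid enzymes higher. Counting Insig1, Scap, Srebf2 and Stard4 with the sterol enzymes gave a median of 0.20, and leaving out Acly and Acss2 gave a fatty acid median of 0.16. Dim features such as Fads2, Srebf1 and Fasn, and Abca1, Nfya and Cpt1b of the other lists, lie near the level of features without a gene name (median 7.20). This limits what their differences show.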
